A study of Bos taurus with 12 samples.

Results

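The genes described here are 7 inflammatory genes of cultured cattle skin: the cytokines IL1A, IL1B, TNF and IL6, the chemokines CXCL8 and CCL20, and PTGS2, the inducible prostaglandin synthase also called cyclooxygenase-2. They were chosen by their Ensembl identifiers, as 7 of the 27607 rows of the count table, and all 7 passed the filter on low counts that kept 14594 genes for testing. The samples were skin biopsies of Holstein heifers, half-sisters by 1 of 2 sires that were heterozygous for the slick allele, with 6 libraries labelled slick and 6 labelled wild type, called non-slick here. The SLICK1 allele shortens the prolactin receptor and goes with a short, sleek coat. Every explant, of both genotypes, spent 36 h in culture at 38.5 °C with ovine prolactin at 50 ng/mL, hydrocortisone at 0.4 µg/mL, insulin, transferrin, selenium, amphotericin B, penicillin and streptomycin. All 12 samples analysed here were cultured with both hormones, so the comparison is of genotypes under 1 culture condition. The labels give no age, no sire and no number of allele copies per heifer, and they do not state that each library came from a different heifer, so the p-values here rest on the spread between libraries, whatever its source.

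IL-1 and TNF act early in skin inflammation. They bind receptors on keratinocytes, fibroblasts and endothelial cells and switch on NF-kappaB and MAP kinase signalling, and IL6, CXCL8, CCL20 and PTGS2 are among the genes that this signalling induces. CXCL8 attracts neutrophils, CCL20 attracts lymphocytes and dendritic cells that carry CCR6, and PTGS2 converts arachidonic acid to the precursor of the prostaglandins. Wounding and culture are known to induce these genes in skin, and glucocorticoids such as hydrocortisone are known to dampen them.

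All 7 genes were detected in all 12 libraries, and none passed the test for a difference between the genotypes. What the libraries did show was wide variation between explants of the same genotype, up to 7.66-fold for IL1B in the non-slick group. No explant was highest for all 7 genes, though slick 3 was among the 3 highest libraries for 5 of them and slick 1 for 4. The fit put 5 of the 7 higher and 2 lower in slick than in non-slick libraries (CCL20, counted as higher, was fitted lower in limma-voom and with a replicate block), where 50.6% of all genes tested were fitted higher. By edgeR (quasi-likelihood F-test), 0 of the 7 genes passed an adjusted p of 0.05, against 0% of the genes tested. At an unadjusted p of 0.05 edgeR listed 0 of the 7, against 5.56% of all genes. DESeq2 called 0 of the 7, against 0.0218% of the genes with an adjusted p, and limma-voom called 0, against 0%. Unadjusted, DESeq2 listed IL1B alone (5.29% of all genes) and limma-voom listed IL1B and IL6 (6.11% of all genes). In 0 of the 7 did the libraries of the genotypes fail to overlap, against 0.281% of genes tested. Values are CPM, read counts divided by the library total in units of 1000000 reads, the total being first adjusted by its TMM factor (a trimmed mean of log ratios), and fold changes are slick over non-slick.

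**Figure D1:**
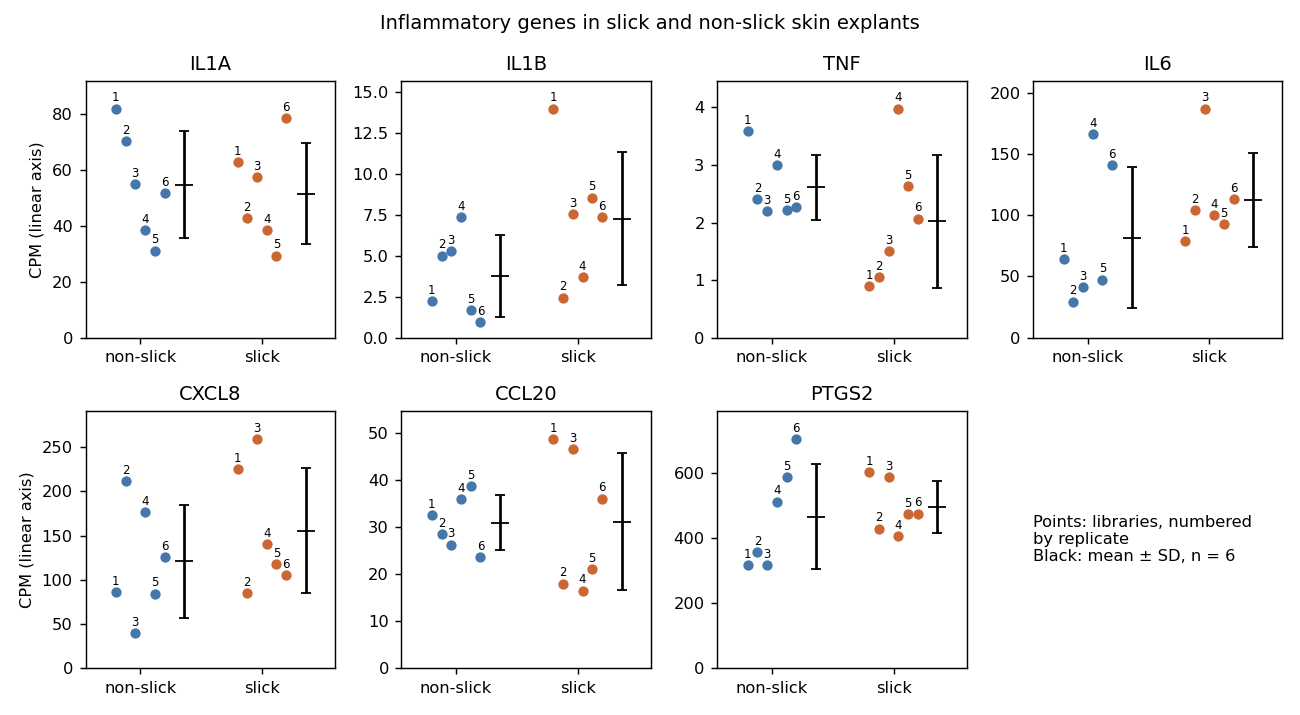
CPM of the 7 genes (linear axes from 0) in the 6 non-slick and 6 slick libraries, each point a library numbered by its replicate, with the mean and SD of each group in black. The groups overlap in all 7 genes, and the scatter within a group is wide, as for IL6 in non-slick explants, from 29.5 to 166 CPM.

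Library totals lay between 10903164 (slick 2) and 22036904 (slick 5), and the 7 genes together held 0.0449% to 0.113% of the counts of a library. Slick 2 had by far the smallest total, and slick 4 lay farthest out on the first principal component of all genes. None of the 7 genes correlated with total count, TMM factor or the first component at an adjusted p of 0.05 (21 relations, permutation test, lowest adjusted p 0.644). The smallest p of r was that of CCL20 with the first component (r = -0.55, permutation p = 0.0629, adjusted p = 0.644), where rho was -0.34 (permutation p = 0.276, adjusted p = 0.692) and r without the 2 outermost libraries was -0.49. The smallest p of rho was that of IL1A with total count (rho = -0.58, permutation p = 0.0520, adjusted p = 0.692). Its r was -0.29 (permutation p = 0.368, adjusted p = 0.644), and -0.66 without the 2 libraries of outermost total. In bulk tissue fewer cells of a type and less RNA per cell cannot be told apart.

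IL1A (ENSBTAG00000010349) encodes an IL-1 form that keratinocytes store and release when they are damaged. Its level in slick libraries ran from 29.4 to 78.7 CPM with a median of 50.2, and the non-slick range was 31.2 to 82.1 CPM with a median of 53.4. Both groups covered nearly the same range, with slick 5 lowest and non-slick 1 highest. The means were 51.7 ± 18.1 CPM for slick and 54.8 ± 19.1 CPM for non-slick (SD, n = 6 each). The fitted log2 fold change was -0.08 (SE 0.26, 95% interval -0.65 to 0.48, edgeR adjusted p = 0.969). A difference of 2-fold in either direction lies outside this interval.

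IL1B (ENSBTAG00000001321), the secreted IL-1 form, is made as an inactive precursor that caspase-1 cuts. It had the largest fitted difference of the 7 and also the widest spread. Slick libraries had 2.45 to 14.0 CPM with a median of 7.46, and non-slick libraries had 0.964 to 7.38 CPM with a median of 3.63. Slick 1 was highest and non-slick 6 lowest, a 14.5-fold range over the 12 libraries. In 3 slick libraries the level lay above all non-slick ones, and in 3 non-slick libraries it lay below all slick ones. The margins were narrow: slick 3 had 7.55 CPM against 7.38 in non-slick 4, and non-slick 1 had 2.25 against 2.45 in slick 2. The means were 7.27 ± 4.07 CPM for slick and 3.77 ± 2.51 CPM for non-slick (SD, n = 6 each), and the fitted difference was 1.94-fold. The log2 fold change of 0.96 (SE 0.49, 95% interval -0.09 to 2.00) had an edgeR p of 0.0690, and an adjusted p of 0.839. The unadjusted p was 0.0354 in DESeq2 and 0.0287 in limma-voom, and the adjusted p of IL1B was 0.811 and 0.805. Equal levels and a 2-fold higher level in slick explants both lie inside the edgeR interval. Counts behind these values ran from 20 to 280 per library. At the median count, counting error alone gives a coefficient of variation of 10.9%, against 67.2% measured over the 12 libraries.

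The genes IL1A and IL1B are near neighbours in the genome: in the RefSeq cattle assembly ARS-UCD2.0 1 annotated gene starts between them. No correlation of their levels across the explants passed the threshold. Pearson's r of log2 CPM was 0.12 (permutation p = 0.712, adjusted over 21 pairs p = 0.841) and Spearman's rho was 0.01 (permutation p = 0.974, adjusted p = 0.974, n = 12). Without the libraries farthest from the IL1B median, non-slick 5 and 6, r was -0.10. The log2 ratio of IL1A to IL1B was lowest in slick 5, at 1.77, and highest in non-slick 6, at 5.602, the libraries with the lowest IL1A and the lowest IL1B.

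TNF (ENSBTAG00000025471), the other early cytokine, was the least counted of the 7, with 12 to 93 counts per library. Slick libraries ran from 0.900 to 3.98 CPM with a median of 1.78, and the non-slick range was 2.20 to 3.59 CPM with a median of 2.33. Slick explants held both the highest value, in slick 4, and the 4 lowest, while the 6 non-slick values lay close together. The means were 2.02 ± 1.16 CPM for slick and 2.61 ± 0.565 CPM for non-slick (SD, n = 6 each). The fitted log2 fold change was -0.35 (SE 0.35, 95% interval -1.10 to 0.40, edgeR adjusted p = 0.875). At the median count, counting error alone gives a coefficient of variation of 15.0%, against 39.7% measured over the 12 libraries.

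IL6 (ENSBTAG00000014921), a cytokine that the IL-1 and TNF pathways induce in fibroblasts and keratinocytes, showed its spread mainly in the non-slick group. Slick libraries had 78.7 to 187 CPM with a median of 102. Non-slick libraries had 29.5 to 166 CPM with a median of 55.9. All 6 slick libraries lay above the non-slick median, and 4 non-slick libraries lay below every slick one. However, of the slick libraries only slick 3 exceeded non-slick 4 and non-slick 6, at 166 and 141 CPM. The means were 113 ± 38.3 CPM for slick and 81.6 ± 57.5 CPM for non-slick (SD, n = 6 each). The fitted difference was 1.38-fold (95% interval 0.720 to 2.64), a log2 fold change of 0.46 (SE 0.43) with an edgeR adjusted p of 0.866. In limma-voom, which gives libraries unequal weights, the log2 fold change was 0.75 (SE 0.34, unadjusted p = 0.0435, adjusted p = 0.807). Slick 3 stood apart from the other slick libraries at 187 CPM, and the log2 fold change without it was 0.26. It was 0.81 without non-slick 4.

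CXCL8 (ENSBTAG00000019716), the neutrophil chemokine, ranged from 84.9 to 260 CPM in slick libraries with a median of 129, while the non-slick range was 39.7 to 212 CPM with a median of 106. Non-slick 3 was lowest and slick 3 and slick 1 were highest. Behind these came non-slick 2, which was the lowest of all in IL6. The means were 156 ± 70.7 CPM for slick and 121 ± 64.2 CPM for non-slick (SD, n = 6 each). The log2 fold change was 0.37 (SE 0.40, 95% interval -0.52 to 1.25, edgeR adjusted p = 0.886). Read counts were 612 to 4516 per library, for which counting error gives a coefficient of variation of 1.98% at the median, against 48.4% measured.

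CCL20 (ENSBTAG00000021326), the CCR6 ligand, had nearly the same mean in both genotypes, 31.1 ± 14.6 CPM for slick and 30.9 ± 5.86 CPM for non-slick (SD, n = 6 each). Slick libraries fell on both sides of the non-slick ones. They ran from 16.5 to 48.8 CPM with a median of 28.5, and the non-slick range was 23.5 to 38.7 CPM with a median of 30.5. Slick 1 and slick 3 were above, and slick 2, slick 4 and slick 5 below, every non-slick library. Its fitted log2 fold change was 0.01 (SE 0.27, 95% interval -0.56 to 0.59, edgeR adjusted p = 0.995). It was -0.18 in limma-voom and -0.10 with a replicate block, so no direction was fixed.

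PTGS2 (ENSBTAG00000014127) was the steadiest of the 7 between libraries. Slick libraries ran from 406 to 601 CPM with a median of 473, and the non-slick range was 315 to 704 CPM with a median of 434. The non-slick libraries spanned the wider range, with non-slick 1, 2 and 3 below all slick libraries and non-slick 6 above them all. The means were 495 ± 81.3 CPM for slick and 465 ± 162 CPM for non-slick (SD, n = 6 each). The log2 fold change was 0.09 (SE 0.20, edgeR adjusted p = 0.951). Its 95% interval, a ratio of 0.796 to 1.42, was the narrowest of the 7. For PTGS2, CCL20 and IL1A the interval excluded 2-fold differences both ways, and for IL1B, TNF, IL6 and CXCL8 it did not. Among all genes tested 78.6% had an interval inside 2-fold.

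**Figure D2:**
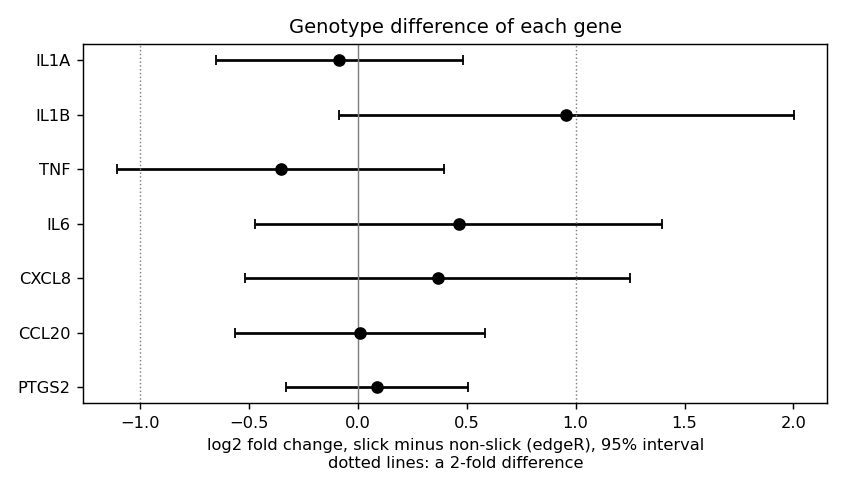
Log2 fold change of each gene, slick minus non-slick, with its 95% interval from edgeR (12 libraries), and dotted lines at a 2-fold difference. All 7 intervals include 0, and the IL1B interval, from -0.09 to 2.00, reaches furthest to the right.

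Explants of 1 genotype spread more in the median of these genes than in the median of all genes. The SD of log2 CPM within genotype had a median of 0.58 over the 7 genes and of 0.31 over all genes tested. It was 0.99 for IL1B, larger than for 93.8% of genes tested, 0.77 for IL6 (88.1%) and 0.76 for CXCL8 (87.9%). It was 0.58 for TNF (79.0%), 0.53 for CCL20 (75.8%), 0.52 for IL1A (75.0%) and 0.39 for PTGS2 (61.7%). The value that 90% of genes tested stayed below was 0.83, and IL1B alone of the 7 exceeded it. Low counts raise this SD, so the biological coefficient of variation of edgeR, which leaves out counting error, was set against its trend at the same abundance. edgeR draws the value of each gene toward this trend, so a value and its trend are not independent. For CXCL8 it was 47.6% against a trend of 19.8%, for IL6 50.2% against 19.4%, and for IL1B 56.9% against 33.8%. IL1A had 32.0% against 19.6% and CCL20 32.5% against 20.8%. PTGS2 had 24.9% against 20.97%, and TNF was below its trend, at 40.7% against 44.9%.

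**Figure D3:**
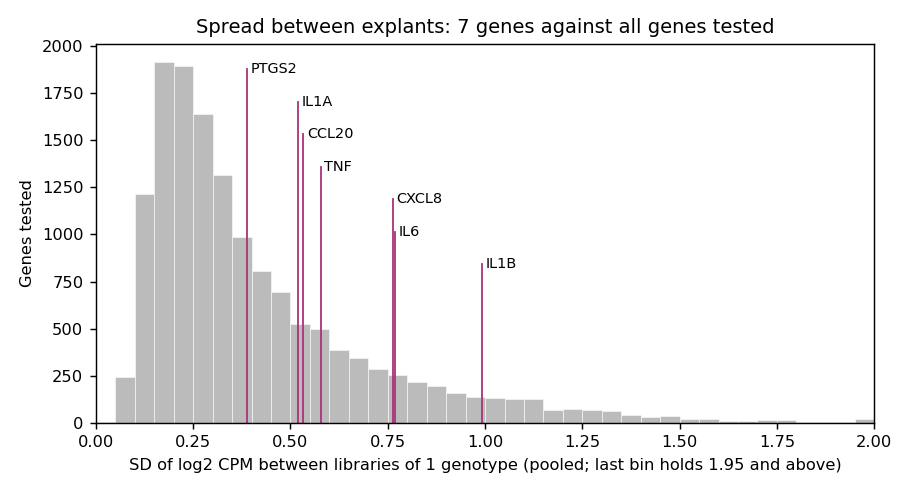
Histogram of the SD of log2 CPM between libraries of 1 genotype over the genes tested (bar height, number of genes), with a line for each of the 7 genes at its own SD (line heights only separate the names). PTGS2, at 0.39, is the lowest of the 7 and IL1B, at 0.99, the highest.

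Which genotype varied more depended on the gene. TNF had an SD of log2 CPM of 0.77 in the slick group and 0.28 in the non-slick, and CCL20 had 0.70 and 0.28. In the opposite direction, IL6 had 0.42 in the slick group and 1.00 in the non-slick, and PTGS2 had 0.23 and 0.50. IL1A had 0.52 in both groups. The SD was larger in slick libraries for 2 of the 7 genes and for 53.1% of all genes tested. These differences in spread were not tested.

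An explant with a high level of 1 gene was not in general high in the others. Slick 3 was among the 3 highest libraries for 5 of the 7 genes (CXCL8, IL6, IL1B, PTGS2 and CCL20), yet only slick 1 and slick 2 had less TNF. Slick 1 was among the 3 highest for 4 genes (CXCL8, IL1B, PTGS2 and CCL20) and had the lowest TNF of all. Non-slick 6 had the highest PTGS2 and the lowest IL1B. Non-slick 1 had the highest IL1A and the lowest PTGS2, and slick 4 had the highest TNF and the lowest CCL20. Non-slick 5 was among the 3 lowest for 4 genes, yet among the 3 highest for CCL20. Slick 2 and non-slick 3 were among the 3 lowest for 3 genes each and among the 3 highest for 0.

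**Figure D4:**
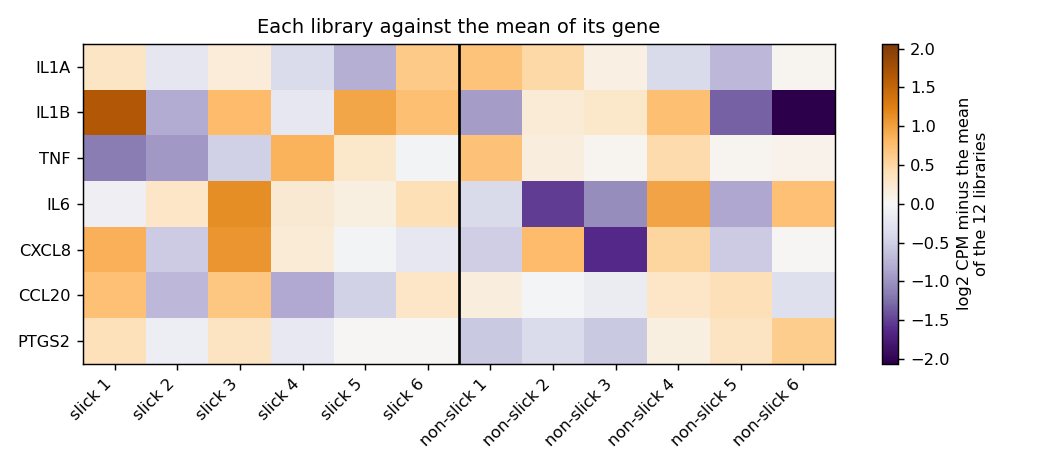
Log2 CPM of each gene (rows) in each library (columns, slick left of the line, non-slick right) minus the mean of the 12 libraries for that gene. Slick 3 is above the mean in all genes but TNF, whereas non-slick 6 is far below it in IL1B and above it in IL6 and PTGS2.

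Correlations across the 12 libraries were weak. Of the 21 pairs of genes, 12 had a Pearson r above 0, with a median r of 0.10, where 49.9% of all pairs of tested genes had an r above 0. The median r was imprecise: it was 0.0013 without slick 3 and 0.17 without non-slick 6. Leaving out any one of slick 1, slick 6 and non-slick 1, 2, 4 and 5 gave 0.0059 to 0.064. It stayed above 0 whichever single library was left out. No pair passed an adjusted p of 0.05 by r or by rho (permutation test, 21 pairs). The highest r was 0.58, between IL6 and PTGS2 (permutation p = 0.0513, adjusted p = 0.602, rho 0.57, permutation p = 0.0586, adjusted p = 0.563). Without non-slick 2 and non-slick 3, the libraries with the least IL6, this r was 0.30, over a narrower range of IL6. The lowest was -0.40, between TNF and PTGS2 (permutation p = 0.204, adjusted p = 0.602, rho -0.44, permutation p = 0.154, adjusted p = 0.563), and without slick 1 and slick 2 it was -0.45. TNF had a negative r with each of the other 6 genes over the 12 libraries, but not within the non-slick group. Among non-slick libraries its r was 0.42 with IL1A, 0.37 with CCL20, 0.31 with IL6, 0.21 with CXCL8, 0.18 with IL1B and -0.36 with PTGS2. Among slick libraries it was -0.59 with PTGS2, -0.54 with CCL20, -0.44 with IL1A, -0.22 with CXCL8, -0.21 with IL1B and 0.02 with IL6. CXCL8 was the gene that best followed the mean of the other 6, with an r of 0.61, and IL1A, at 0.0040, and TNF, at -0.41, followed it least.

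Within each genotype 15 of the 21 pairs had an r above 0, and 11 had one in both. Of all pairs of tested genes 49.88% had one in the slick group and 49.96% in the non-slick. The share of all pairs with one in both was not computed. The median r was 0.30 over slick and 0.11 over non-slick libraries. An r above 0.7 was found for 6 pairs in the slick group, where 7.74% of all pairs of tested genes had one, and for 0 pairs in the non-slick, where 7.07% did. Pairs of the 7 genes share genes and libraries and are not independent of each other. The 3 pairs given next were picked for the largest differences between the genotypes (on the Fisher z scale). PTGS2 and CCL20 had an r of 0.93 in the slick group and 0.04 in the non-slick, IL1A and CCL20 had 0.77 and -0.49, and IL1B and PTGS2 had 0.81 and -0.56 (n = 6 each). Among slick libraries, PTGS2 and CCL20 were both highest in slick 1 and slick 3 and both lowest in slick 2 and slick 4. A test added after these values were seen permuted genotype over the deviations from the genotype means. The difference had a p of 0.0152 for PTGS2 and CCL20, 0.0108 for IL1A and CCL20, and 0.0563 for IL1B and PTGS2 (permutation test, two-sided, all 924 splits). Adjusted over the 21 pairs these became 0.136, 0.136 and 0.295, and 0 of 21 differences passed 0.05. The test is approximate, because the deviations come from fitted means. Unequal spread of a gene in the genotypes can also move the p, so it does not isolate a difference of r. Unadjusted, 3 of the 21 had a p below 0.05 in this test. The third was IL1A and PTGS2, with an r of 0.51 in slick and -0.69 in non-slick libraries (permutation p = 0.0195, adjusted p = 0.136). Slick 2 is also the library of smallest total, and slick 4 the one farthest out on the first component. Their part in these correlations was not tested.

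**Figure D5:**
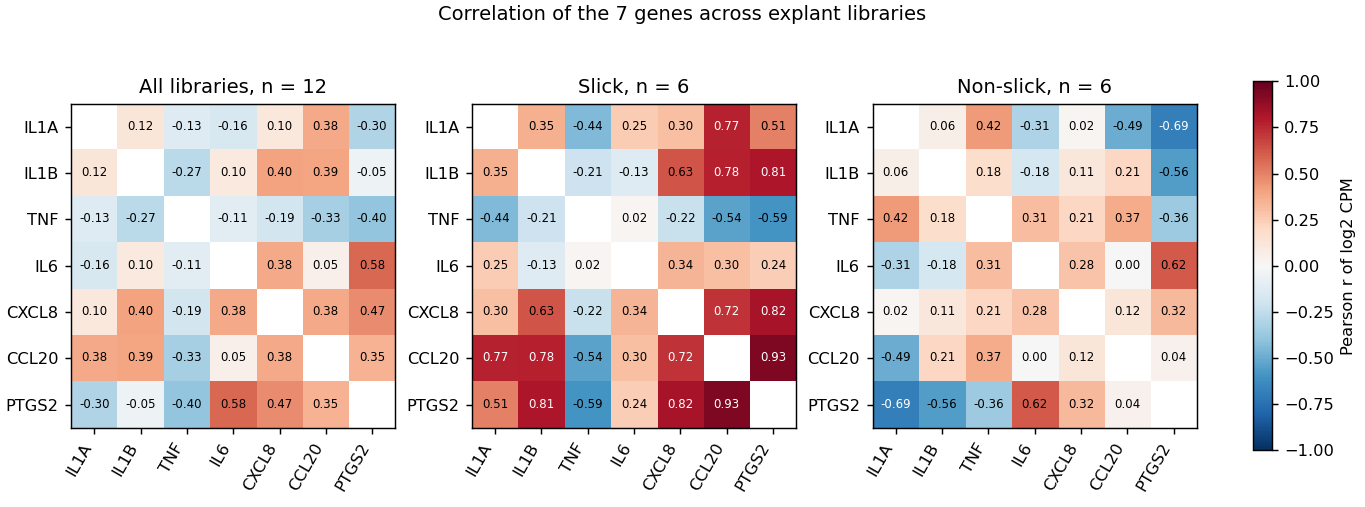
Pearson r of log2 CPM for each pair of the 7 genes over all 12 libraries (left), the 6 slick libraries (middle) and the 6 non-slick libraries (right). The highest value is 0.58 on the left, 0.93 in slick and 0.62 in non-slick libraries.

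Of the other tested genes, the profile most like the mean of the 7 genes, each first scaled to unit variance, was that of ENSBTAG00000011635, with a Pearson r of 0.85 over 12 libraries, and of ENSBTAG00000017919, also with 0.85. The most opposite were ENSBTAG00000013464, with -0.89, and ENSBTAG00000016169, with -0.87. These are the extremes picked from all genes tested, and no p was computed for them. The 7 genes correlated weakly with each other, so their mean is not a profile that all of them share. The files do not pair these identifiers with names. ENSBTAG00000013464 was lowest in slick 3 and highest in slick 2, at 2.71 and 5.95 CPM. ENSBTAG00000016169 was lowest in slick 3, at 65.2 CPM, and highest in non-slick 3, at 128 CPM. By single genes, 32 genes had an r above 0.8 with IL6, 29 with CCL20, 26 with CXCL8 and 17 with IL1B. IL1A had 12 such genes, TNF 8 and PTGS2 7, where the median over all genes tested was 24.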

How the data were processed

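PolyA RNA of skin explants was sequenced in read pairs, and the authors deposited 1 table of raw read counts per Ensembl cattle gene, with whole numbers and a column for each of the 12 libraries. Tools listed in the submitters' processing notes, with no role for any, were FastQC, STAR, HTSeq and R (4.3.1). For genome build, annotation release and strand setting the entry is not given in the sources used here, and reads of overlapping or antisense genes cannot be told apart. Gene symbols of the 7 rows came with the list that defined the set. A RefSeq table of 37063 cattle genes holds each symbol once but no Ensembl ID, so neither these names nor the tissue label was checked against it, and the lists of receptors, feedback genes and cell type markers were not analysed here.

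Library names tied columns to labels. Genes were kept with filterByExpr, scaled by TMM and tested in edgeR 4.0.16 (quasi-likelihood, robust, genotype as sole term) in R 4.3.3, adjusted by Benjamini-Hochberg over 14594 genes. Log2 CPM used a prior count of 2. Alternatives used DESeq2 1.42.0, limma-voom (limma 3.58.1) with quality weights, other factors and filters, a replicate block, thinned counts and each library left out. The edgeR script was tested on simulated data. Correlations used 100000 permutations. The chi-square per degree of freedom was at least 16.4 for any pair of libraries, where sampling noise gives about 1, so no library was counted again. All 7 genes are named by rule, and other genes by the highest and lowest r to their mean profile. The members and lists were chosen with earlier results of these data known.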

Additional observations from a re-analysis of the deposited data

Results flagged for a closer look

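IL6 stood at 187 CPM in slick 3, where the gap to the next slick library was 0.682 of the range of the group. The total count of slick 2, 10903164, lay below the other slick libraries by 0.663 of the range. Both exceed the limit of 0.625 for 6 values. Of 16 sets of values looked at, 2 passed this limit, and about 1 in 20 would by chance.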

How the results depend on the processing

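No alternative called any of the 7 genes. The edgeR count of 0 over all genes became 4 in DESeq2, and 0 to 2 with 1 library left out (2 without non-slick 4). edgeR listed 811 genes at an unadjusted p of 0.05, limma-voom 891 and DESeq2 1098. IL1B, IL6, CXCL8, PTGS2 and TNF kept their direction in 20 of 20 alternatives. With 1 library left out, the log2 fold change ran from 0.66 to 1.28 for IL1B, 0.26 to 0.81 for IL6, 0.16 to 0.61 for CXCL8, 0.0057 to 0.25 for PTGS2, -0.66 to -0.20 for TNF, -0.24 to 0.071 for IL1A and -0.16 to 0.14 for CCL20. IL1A turned to 0.062 without slick 2 and slick 4 together, and CCL20 to -0.18 in limma-voom and -0.10 with the replicate block. The cause was not tested. Same-numbered libraries correlated at -0.09 to 0.26 in their deviations, and 4 of 12 matched their own number best, so the numbers were not taken as pairs. With the replicate block edgeR called 0 genes. The median SD of 0.58 was 0.53 to 0.61 under the alternatives, and the median r of 0.10 was 0.0013 (without slick 3) to 0.17 (without non-slick 6). Counts as low as 12 for TNF and 20 for IL1B limit these 2 genes.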
